A study of Mus musculus with 64 samples.

Results

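The 4E-BPs are small proteins that bind the cap-binding factor eIF4E and keep it from recruiting ribosomes to capped messenger RNA. The kinase complex mTORC1 releases that block by phosphorylating them when nutrients and growth factors are plentiful, a step that RNA levels do not show. Described here are 9 genes: the translation repressors Eif4ebp1, Eif4ebp2 and Eif4ebp3, their target Eif4e, the kinase Mtor, its partner Rptor (Raptor), the mTOR inhibitor Deptor, and the sestrins Sesn1 and Sesn3, stress-inducible inhibitors of mTORC1. They were picked by symbol from the 36332 gene IDs of the table, and Eif4ebp3 was put among them because it had been seen to fall in old wild-type liver. Values from that comparison are therefore given as a description with no test, and so are the other Eif4ebp3 comparisons that use the same liver libraries. All 9 passed the filter on low values in each tissue.

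In RefSeq on GRCm38.p6 the genes lie at chr8:27260327-27275656 (Eif4ebp1, gene ID 13685), chr10:61428491-61452790 (Eif4ebp2, 13688), chr3:138526191-138559696 (Eif4e, 13684), chr4:148448582-148557685 (Mtor, 56717) and chr11:119602905-119899591 (Rptor, 74370). The inhibitors lie at chr15:55112317-55259273 (Deptor, 97998), chr10:41810574-41908436 (Sesn1, 140742) and chr9:14276301-14326134 (Sesn3, 75747). Eif4ebp3 (108112) lies on chromosome 18, next to Ankhd1.

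The mice were of 2 genotypes. KO mice came from a cross of a strain with tamoxifen-activated Cre, Gt(ROSA)26Sortm1(cre/ERT2)Tyj, with a strain holding a conditional allele of Myc, Myctm2Fwa. The WT strain is given as C57/B6. According to the labels, every mouse had 5 daily injections of tamoxifen at 75 mg/kg in corn oil at weaning, from a weight of 15 g, and no label gives KO-line mice without Cre or without tamoxifen as controls. Omental adipose tissue, liver and skeletal muscle were sequenced at 5 and 20 months, which makes 12 groups and 64 libraries: 6 libraries per group at 5 months (4 in muscle of KO mice) and 5 per group at 20 months. Library codes of the older mice begin K18 or W18 although their labels give 20 months, and the labelled age is used here. The labels do not state that each library of a group is another mouse, so p-values measure the spread between libraries.

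Depth was 15449409 to 28500633 reads on genes per library, and the levels below are CPM as deposited, a read signal scaled per library. Mean Myc was lower in KO than in WT libraries in each tissue at each age, from 2.11 to 10.2 CPM in the KO groups against 5.87 to 29.1 CPM in the WT groups. Summed hepatocyte markers were at least 116273 CPM in every liver library, and summed muscle markers at least 142249 CPM in every muscle library. Some libraries stood apart. Xist without transcripts of the Y chromosome marked 12 of the young libraries, 2 in each young group (in liver K5L5116, K5L5118, W5L5041 and W5L5042), whereas all 20-month libraries had Y transcripts. Every comparison of ages thus sets a young group that includes Xist libraries against an old group without any. In adipose tissue 4 libraries at 5 months summed 919 to 6979 CPM of epididymis markers (K5F4284, K5F5218, K5F5248 and W5F5299), and 1 muscle library of WT mice at 20 months (W18S42) held 3039 CPM of hepatocyte markers. The young muscle library W5S5299 summed 127 CPM of epididymis markers, where each other muscle library had 1.49 CPM or less. Hepatocyte marker sums in adipose tissue were also higher in the young, with a median of 3104 CPM in WT mice at 5 months and 373 CPM at 20 months. Called results were refitted without the Xist libraries and, in adipose tissue, without the 4 epididymis libraries, and also without each single library.

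The promoter sequences that bear on the study's question are shown first, from the RefSeq promoter table for build GRCm38.p6. An E-box, CACGTG on both strands, is the motif that Myc and its partner Max bind, and Eif4e is a long-known Myc target. Among the 8 promoter windows of 250 bases found for 6 of the 9 genes, an E-box was present in 1, a window of Eif4e, which held 2 of them. The Eif4e window just before the RefSeq start of the gene, chr3:138525941-138526190, held 0. Of all 32851 promoter windows of that length, 6.02% held an E-box. The stretches around them, with the E-box in capitals, lie on the plus strand of chromosome 3 at chr3:138527028-138527057 (228 bases before the start) and chr3:138527192-138527221 (64 bases before it), within a stretch that GENCODE vM21 also annotates as exon of another Eif4e transcript.
Eif4e E-box, distal: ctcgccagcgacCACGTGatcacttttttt
Eif4e E-box, proximal: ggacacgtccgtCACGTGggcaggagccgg

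Sesn1 and Sesn3 are both known FoxO targets, and their levels moved opposite ways with age in WT muscle, so their promoters are set side by side. The windows are chr10:41887189-41887438 for one of 2 Sesn1 starts and chr9:14276051-14276300 for Sesn3, both on the plus strand and both free of annotated exons. A FoxO motif, GTAAACA on either strand, was in neither of them nor in any other member's window, against 3.17% of all windows. The Sesn1 stretch was 71.2% G or C and the Sesn3 stretch 59.6%.
Sesn1 promoter: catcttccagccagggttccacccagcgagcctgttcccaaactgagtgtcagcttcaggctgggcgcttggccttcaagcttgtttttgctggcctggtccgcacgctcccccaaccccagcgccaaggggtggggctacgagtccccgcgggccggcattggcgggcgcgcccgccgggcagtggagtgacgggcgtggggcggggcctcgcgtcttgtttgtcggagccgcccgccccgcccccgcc
Sesn3 promoter: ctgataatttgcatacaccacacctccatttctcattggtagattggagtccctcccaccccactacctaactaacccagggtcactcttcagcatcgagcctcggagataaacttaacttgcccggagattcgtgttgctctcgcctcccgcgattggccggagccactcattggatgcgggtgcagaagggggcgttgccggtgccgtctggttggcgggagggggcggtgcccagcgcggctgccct

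The shares of the 4E-BPs in young WT mice are given as a description with no test. Their liver libraries are among those behind the choice of Eif4ebp3. Per kilobase of the longest transcript in GENCODE vM21, Eif4ebp3 made up 64.9% ± 25.7 (SD, n = 6) of the summed 4E-BP signal in liver, 32.7% ± 23.5 in adipose tissue and 3.44% to 6.85% in muscle. Eif4ebp1 supplied 12.1% ± 8.58 in liver, 54.9% ± 20.3 in adipose tissue and 58.4% ± 14.0 in muscle. Eif4ebp2 made up the remainder, 12.4% ± 4.94 in adipose tissue and 36.6% ± 13.9 in muscle. The Eif4ebp3 share in liver ran from 27.9% to 93.0% between libraries, the widest range of these 9 shares. At 20 months the liver shares were not the same. Eif4ebp3 then made up 14.4% ± 4.28 and Eif4ebp2 69.5% ± 3.54 in WT liver (n = 5). In KO liver at 20 months they made up 29.4% ± 8.48 and 51.2% ± 9.55 (n = 5). These shares depend on the transcript length used, which was 744 bases for Eif4ebp3, 1997 for Eif4ebp1 and 5784 for Eif4ebp2. In bulk tissue, fewer cells of a type and less RNA per cell cannot be told apart.

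The order of the tissues was then compared for each gene on the CPM scale, in WT mice at 5 months, with limma on log2(CPM + 1). Total deposited signal differed by tissue among these libraries. No adipose library summed above 712293, whereas every liver library reached 1358020 or more. Muscle libraries lay between, with sums of 1160840 to 1295580. The tissue orders below hold on this deposited scale only. Levels per total reads can give another order, which was not tested. A gene is called where its Benjamini-Hochberg adjusted p over all genes tested is under 0.05. Adipose tissue against liver gave 8 of 9 genes called (69.7% of all tested genes were), adipose tissue against muscle 6 of 9 (68.9% of all) and liver against muscle 6 of 9 (73.1% of all). The counts with liver include Eif4ebp3, from which nothing is read there. Eif4ebp3 averaged 356 ± 390 CPM in liver, 63.3 ± 57.7 CPM in adipose tissue and 6.97 ± 2.83 CPM in muscle (SD, n = 6 each). Its liver libraries, those behind the choice of the gene, ran from 28.5 to 1047 CPM and its muscle libraries from 3.87 to 11.3 CPM. The log2 difference of Eif4ebp3 between adipose tissue and muscle was 2.33 ± 0.81 (SE, adjusted p = 0.0158).

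Eif4ebp2, the 4E-BP that is most abundant in brain, was about as high in liver (393 ± 45.4 CPM) as in muscle (365 ± 61.9 CPM), with a log2 difference of 0.12 and a 95% interval from -0.15 to 0.38. It was lower in adipose tissue at 139 ± 11.9 CPM, by 1.49 against liver on the log2 scale (adjusted p = 2.7e-09). Eif4ebp1 ran the other way, at 220 ± 60.5 CPM in adipose tissue and 227 ± 97.8 CPM in muscle but 78.1 ± 16.3 CPM in liver. Its log2 difference between adipose tissue and liver was 1.46 ± 0.30 (adjusted p = 0.0002782), whereas adipose tissue and muscle differed by 0.08 (interval -0.56 to 0.72). So liver paired high Eif4ebp2 with low Eif4ebp1, and adipose tissue the reverse.

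Eif4e, the cap-binding protein itself, rose in order on the deposited scale, and each step was called. Its means were 39.8 ± 4.46 CPM (adipose tissue), 61.9 ± 4.98 (liver) and 94.8 ± 16.1 (muscle). The level of Mtor was 44.5 ± 12.1 CPM (adipose tissue), 77.4 ± 17.0 (liver) and 94.6 ± 19.2 (muscle). Liver and muscle did not differ beyond their spread (log2 -0.29, adjusted p = 0.169). Rptor, the substrate-binding scaffold of mTORC1, was at 31.9 ± 8.74 CPM in adipose tissue against 67.4 ± 6.55 in liver and 58.8 ± 11.7 in muscle, and again liver and muscle were not called apart (log2 0.21, adjusted p = 0.252). Deptor was highest in liver, 184 ± 81.9 CPM, with adipose tissue (59.8 ± 27.3) and muscle (67.2 ± 21.7) not called apart (log2 -0.23, adjusted p = 0.527).

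Sesn1 had its highest mean in muscle, although the lowest muscle library (49.2 CPM) lay below the highest of adipose tissue (216 CPM). It averaged 386 ± 230 CPM in muscle, 92.8 ± 77.0 CPM in adipose tissue and 21.9 ± 13.1 CPM in liver, and liver lay 3.83 ± 0.59 below muscle on the log2 scale (adjusted p = 7.62e-06). Sesn3 was low everywhere, at 2.49 ± 1.18 CPM in muscle, 3.70 ± 1.60 in adipose tissue and 5.55 ± 3.64 in liver. Its lowest library, in young WT muscle, rested on 14 reads. Liver and muscle were called apart for Sesn3 (log2 0.79, adjusted p = 0.0386), but in only 11 of 18 fits that left out 1 library, and neither differed from adipose tissue beyond the spread (adjusted p of 0.335 and 0.266).

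**Figure D1:**
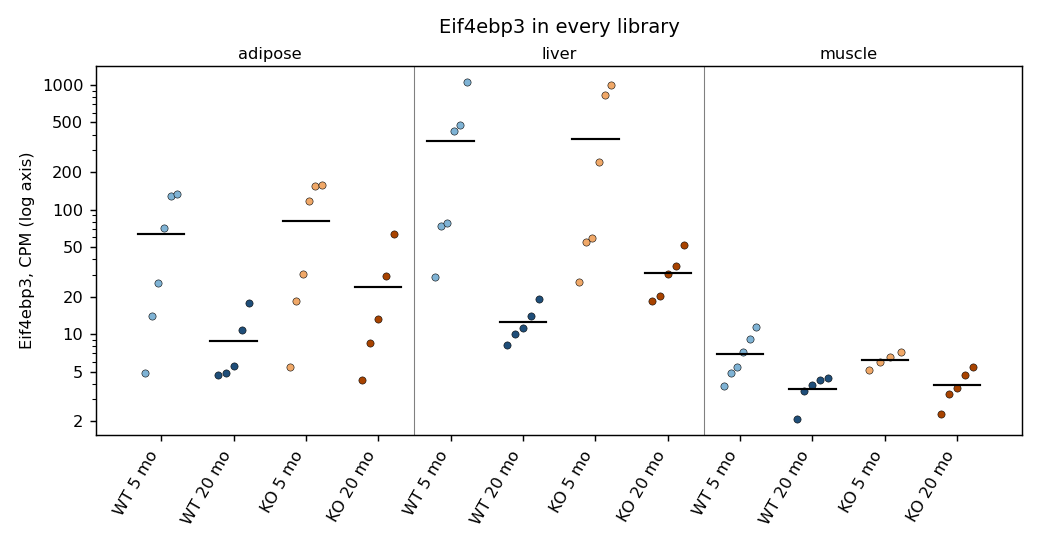
Eif4ebp3 in all 64 libraries, as CPM on a log axis, by tissue, genotype and age. Points are libraries and bars are group means; young liver of both genotypes spans 26.0 to 1047 CPM, while old WT liver stays between 8.21 and 19.1 CPM.

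Eif4ebp3 in liver is the observation on which the choice of genes rests. In young WT liver the libraries had 1047, 478, 430, 78.1, 74.1 and 28.5 CPM. In old WT liver they had 19.1, 14.0, 11.3, 9.96 and 8.21 CPM. The groups did not overlap, and the old mean of 12.5 ± 4.25 CPM was 0.0351 of the young mean of 356 ± 390 CPM. Of the 12924 genes tested, 7.19% were called in this comparison and 4.95% had groups that did not overlap.

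The young values covered a 36.7-fold range and fell into no single level. The high libraries included W5L5041 and W5L5042, which had Xist and no Y transcripts, whereas all old libraries had Y transcripts. The part of this difference in the fall was not tested. The library at 28.5 CPM (W5L5277) lay nearest to the old group. The plot of Eif4ebp3 by library shows the same spread in young KO liver, whose libraries had 997, 833, 240, 59.4, 55.3 and 26.0 CPM. Old KO liver had 51.6, 35.2, 30.6, 20.2 and 18.4 CPM, so 2 of 5 old KO libraries lay below every young one and the groups overlapped.

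The KO groups hold no library of the comparison that led to the choice, and their change was tested, although the limma fit of all 4 liver groups takes its spread from the WT libraries as well. The log2 change from 5 to 20 months in KO liver was -2.43 ± 0.87 (interval -4.24 to -0.62), with an unadjusted p of 0.0107 from limma and an adjusted p of 0.129, so it was not called. Fitted on the 2 KO groups alone, the adjusted p was 0.134. The call turned on the method and on 1 library: edgeR on the recovered reads gave -3.52 (adjusted p = 0.042), and limma without the young KO library K5L5218 gave -2.95 (adjusted p = 0.0441). Over all 22 fits without 1 library the adjusted p ran from 0.0441 to 0.277. Without the Xist libraries the change was -3.17 (adjusted p = 0.0565).

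Fasting, feeding and clock genes in the same liver libraries are given next as values, and their part in the level of Eif4ebp3 was not tested. Of 14 genes induced in liver by fasting, 3 had a log2 change above 0 from 5 to 20 months in WT mice, with a median of -0.38 against -0.01 over all genes, and 1 of 14 in KO mice (median -0.34 against -0.02). Limma called 0 of the 14 in KO liver. Of 9 tested genes induced by feeding, 4 were above 0 in WT mice (median -0.03) and 7 in KO mice (median 0.16). Igfbp1, which liver secretes on fasting, ranged from 27.4 to 1664 CPM in young WT liver and from 23.3 to 137 CPM in old WT liver. Lpin1, a lipid phosphatase induced on fasting, had medians of 401 CPM in the young and 32.4 CPM in the old group.

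Dbp, a clock output gene, ranged from 2.82 to 81.8 CPM (median 3.67) in young and from 2.88 to 255 CPM (median 10.8) in old WT liver. Per1, a clock gene that also responds to stress hormones, had medians of 49.2 CPM in young and 12.4 CPM in old WT liver. Medians of other clock genes went both ways from young to old WT liver. Those of Nr1d1 (48.9 to 84.8 CPM) and Clock (62.3 to 87.0 CPM) were higher at 20 months. Those of Arntl (35.0 to 27.6 CPM) and Cry2 (36.6 to 29.8 CPM) were lower. Ankhd1, the neighbouring gene on chromosome 18 whose read-through transcripts reach Eif4ebp3, averaged 32.7 ± 8.60 CPM in young and 36.6 ± 4.43 CPM in old WT liver, groups that overlapped.

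The genes whose levels followed Eif4ebp3 most closely over the 22 liver libraries were sought among 9864 genes by Pearson correlation of log2(CPM + 1). Ctsl, a lysosomal protease, came first at r = 0.956, then Ahcy, which hydrolyses S-adenosylhomocysteine, at 0.953. Next were Sdsl (0.935), Asl (0.934), Crcp (0.933), Got1 (0.925), Arg1 (0.923) and Tmem62 (0.923). Asl and Arg1 are urea cycle enzymes and Got1 is an aspartate aminotransferase. After group means were subtracted the 8 correlations, pooled over the 22 libraries, were 0.845 to 0.918, so the likeness did not rest on differences between group means alone. No correlation was computed within any single group. All 22 points share their libraries' scaling and the 8 genes were the extremes of a search.

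In adipose tissue Eif4ebp3 had a similarly wide spread. Young WT libraries had 134, 129, 71.5, 25.9, 14.1 and 4.92 CPM and old ones 17.9, 10.9, 5.54, 4.86 and 4.75 CPM. The log2 change was -2.13 ± 0.88 (adjusted p = 0.11 in limma). It passed the threshold with edgeR (-2.87, adjusted p = 0.0464) and in 1 of 22 fits that dropped a library, W5F5006 (adjusted p = 0.0446). Without the epididymis libraries the adjusted p was 0.0862, and without the Xist libraries, the highest of the young group, the change was -1.23 (adjusted p = 0.431). In KO mice the change was -1.48 ± 0.88 (adjusted p = 0.25). Hepatocyte marker sums moved with Eif4ebp3 here, from 481 to 4890 CPM in young against 155 to 550 CPM in old WT libraries, and from 1244 to 3838 CPM against 109 to 1427 CPM in KO libraries; their part in the result was not tested. In muscle, where Eif4ebp3 was scarce, young WT libraries had 11.3, 9.12, 7.13, 5.50, 4.87 and 3.87 CPM against 4.47, 4.26, 3.94, 3.48 and 2.10 CPM at 20 months.

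That muscle change was called, at -0.73 ± 0.22 (adjusted p = 0.0289), with overlapping groups, and it held in 15 of 20 fits without 1 library. It was not called without the Xist libraries (-0.88, adjusted p = 0.0537), with no filter (adjusted p = 0.0619) or with the 2 groups fitted alone (adjusted p = 0.0709). In KO muscle the change was -0.58 ± 0.25 (adjusted p = 0.148), with 4 of 5 old libraries below every young one. Leaving aside WT liver, which led to the choice of the gene, Eif4ebp3 had a lower mean at 20 months in each of the 5 tested comparisons. Of these limma called only that in WT muscle.

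**Figure D2:**
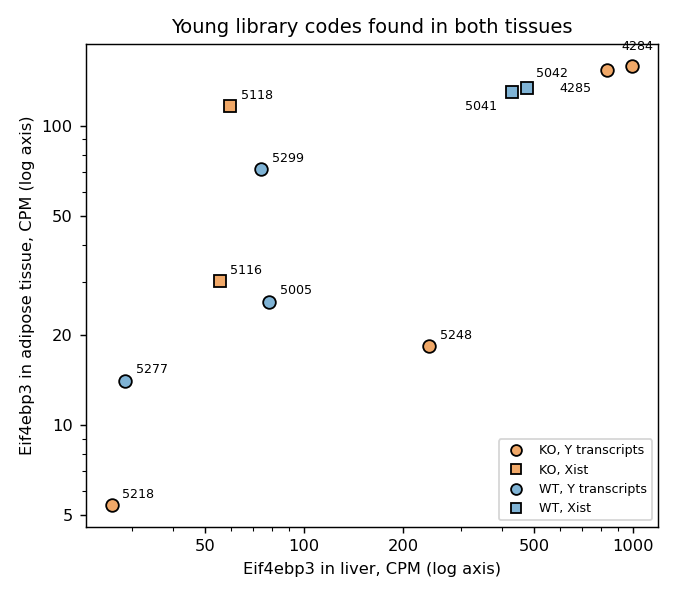
Eif4ebp3 in liver (x axis) and omental adipose tissue (y axis) for the 11 young code numbers found in both tissues, as CPM on log axes; the labels do not say that a shared number is 1 mouse. Colour gives genotype and marker shape the presence of Xist or of Y transcripts; code numbers stand beside the points, and the 4 codes with 430 CPM or more in liver have 129 CPM or more in adipose tissue.

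Young libraries of different tissues share code numbers. The labels do not say that a shared number marks 1 mouse, and the values below have that meaning only if it does; the 4 Xist codes had Xist in each tissue sampled. Over the 11 codes with both tissues, Eif4ebp3 in liver and in adipose tissue had a Pearson r of 0.753 and a Spearman rho of 0.845, given as a description with no test because the WT liver libraries are those behind the choice of the gene. Without the 2 codes farthest from the median r was 0.578, without the Xist codes 0.835 (n = 7) and in KO libraries alone 0.695 (n = 6). Liver libraries K5L4284, K5L4285, W5L5041 and W5L5042 were high and so were the adipose libraries of the same codes, while K5L5218 and W5L5277 and their adipose counterparts were low. The adipose libraries W5F5041, W5F5042 and K5F4285 also had the highest hepatocyte marker sums of their groups, 4890, 4700 and 3838 CPM, whereas K5F4284 had 1994 CPM. The part of liver transcripts in this relation was not tested.

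Relations of this kind were computed for all members, 27 in all, after the data had been seen. Over 9 young codes, again taken as mice, Eif4ebp2 in liver and in muscle had r = -0.849 (exact permutation p = 0.00448, adjusted 0.121) and rho = -0.917 (exact permutation p = 0.00131, adjusted 0.0246). Both values are adjusted over the 27 relations, and without the 2 farthest codes r was -0.791. The adjusted p of rho is set by the next smallest p among the 27, that of Eif4ebp3 between adipose tissue and liver. Because that relation is given above with no test, the adjusted p of rho is not read as a result. The range involved is narrow, 303 to 473 CPM in young WT muscle.

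**Figure D3:**
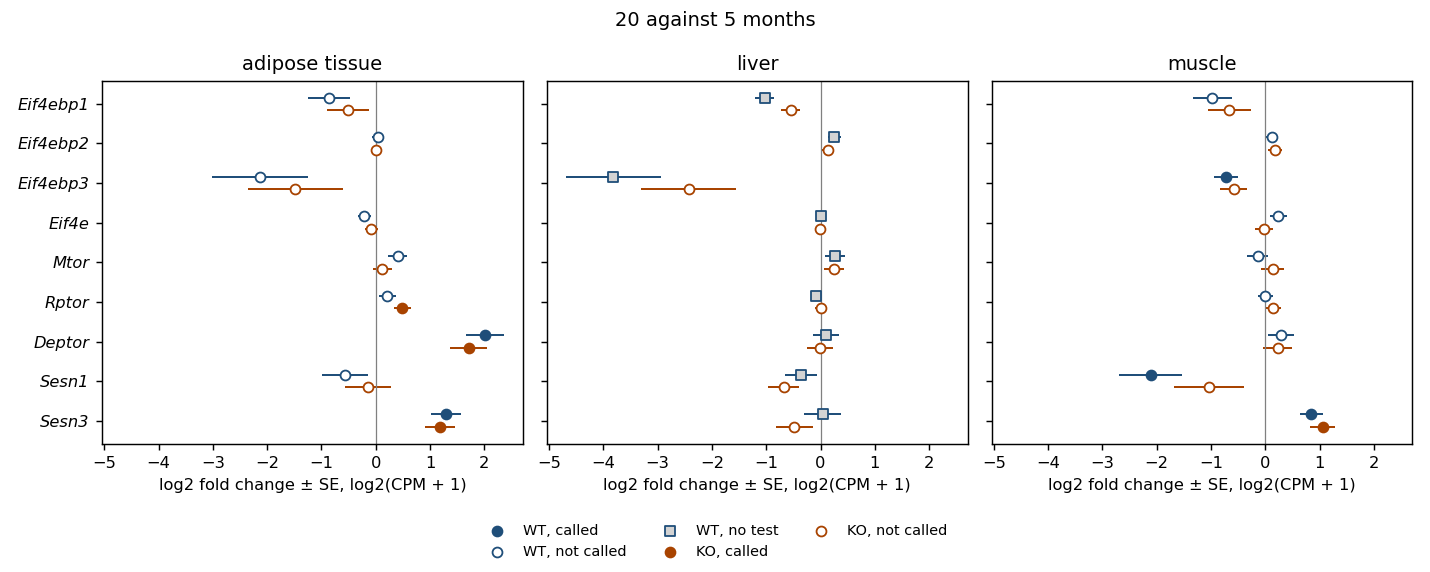
Log2 fold change from 5 to 20 months of the 9 genes in WT (blue) and KO (orange) mice, 1 panel per tissue, with bars of 1 SE from limma on log2(CPM + 1). Filled circles are called, open circles are not, and grey squares (WT liver) carry no test; Deptor and Sesn3 lie right of 0 in adipose tissue in both genotypes, and Sesn1 lies left of 0 in muscle.

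Ageing was next read for the whole group of genes. In adipose tissue 2 of 9 were called in WT mice (10.8% of all 14286 tested genes, 7.41% higher) and 3 of 9 in KO mice (14.2% of all, 10.5% higher), and each member called was higher at 20 months. In muscle 3 of 9 were called in WT mice (18.6% of all 13237) and 1 of 9 in KO mice (5.57% of all). In KO liver limma called 0 of 9 (2.99% of all), with 3 of 9 at an unadjusted p under 0.05 (19.2% of all), and edgeR called 1. The median log2 change of the 9 genes was 0.03 in WT adipose tissue, where that of all genes was 0.01, and 0.01 against 0.06 in KO adipose tissue. In muscle it was 0.00 against 0.03 in WT and 0.13 against -0.02 in KO mice.

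Deptor, which binds and inhibits mTOR, was the largest of the called rises. In young WT adipose tissue it had 105, 69.6, 68.1, 48.1, 33.7 and 33.7 CPM, and at 20 months 278, 261, 248, 199 and 159 CPM. Every old library lay above every young one, which 7.06% of all genes did. The log2 change was 2.01 ± 0.35 (adjusted p = 0.00162). In KO mice it had 22.5 to 115 CPM (median 57.1) at 5 months and 143 to 201 CPM (median 164) at 20 months, no overlap (3.79% of all genes), and a change of 1.71 ± 0.35 (adjusted p = 0.00443).

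The rise of Deptor was called in all 22 fits without 1 library in each genotype. Without the epididymis libraries it was 1.87 in WT (adjusted p = 0.0003) and 1.24 in KO mice (adjusted p = 0.0167), and without the Xist libraries 1.79 (adjusted p = 0.00736) and 2.06 (adjusted p = 0.00127). Cell type markers moved with age in the same WT libraries. Adipocyte marker sums were 19128 to 35861 CPM at 5 months and 11616 to 18805 CPM at 20 months, and T cell marker sums 4.49 to 12.4 CPM and 13.8 to 50.0 CPM, both without overlap. Median sums went from 62.5 to 154 CPM for B and plasma cells and from 375 to 645 CPM for endothelium. In KO libraries the adipocyte sums (10061 to 35699 against 11641 to 21410 CPM) and T cell sums (11.5 to 20.2 against 15.9 to 23.7 CPM) overlapped between ages. The part of these cell types in the rises of Deptor and Sesn3 was not tested. In liver and muscle the log2 differences of Deptor were 0.10 ± 0.24 in WT liver (no test), -0.00 ± 0.24 in KO liver, 0.28 ± 0.24 in WT muscle and 0.23 ± 0.27 in KO muscle, none of the tested ones called. Whether the change differs between tissues was not tested.

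Sesn3, which can hold mTORC1 back through the GATOR complexes and sustain Akt signalling, rose in adipose tissue of both genotypes. It went from 1.74 to 5.67 CPM (median 3.54) in young to 7.06 to 13.2 CPM (median 9.54) in old WT libraries, with no overlap, a log2 change of 1.29 ± 0.28 and an adjusted p of 0.00713. In KO mice 1.80 to 3.76 CPM at 5 months stood against 3.87 to 14.1 CPM at 20 months, again with no overlap (1.18 ± 0.28, adjusted p = 0.0103). Both calls held in all 22 fits without 1 library and without the Xist or the epididymis libraries.

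Muscle showed the same direction for Sesn3. KO muscle had 2.54, 2.47, 2.06 and 1.56 CPM at 5 months and 7.20, 5.85, 5.58, 4.97 and 4.30 CPM at 20 months, with no overlap (8.89% of all genes), a change of 1.06 ± 0.23 and an adjusted p of 0.014. It was lost without the young KO library K5S4284 (0.96, adjusted p = 0.0676). WT muscle rose by 0.85 ± 0.21 (adjusted p = 0.0107), called in all 20 fits without 1 library but not without the Xist libraries (0.61, adjusted p = 0.0783), whose levels of 1.15 and 1.65 CPM were the lowest of the young group. In liver the change was 0.04 ± 0.34 in WT mice (no test) and -0.48 ± 0.34 in KO mice (adjusted p = 0.447).

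**Figure D4:**
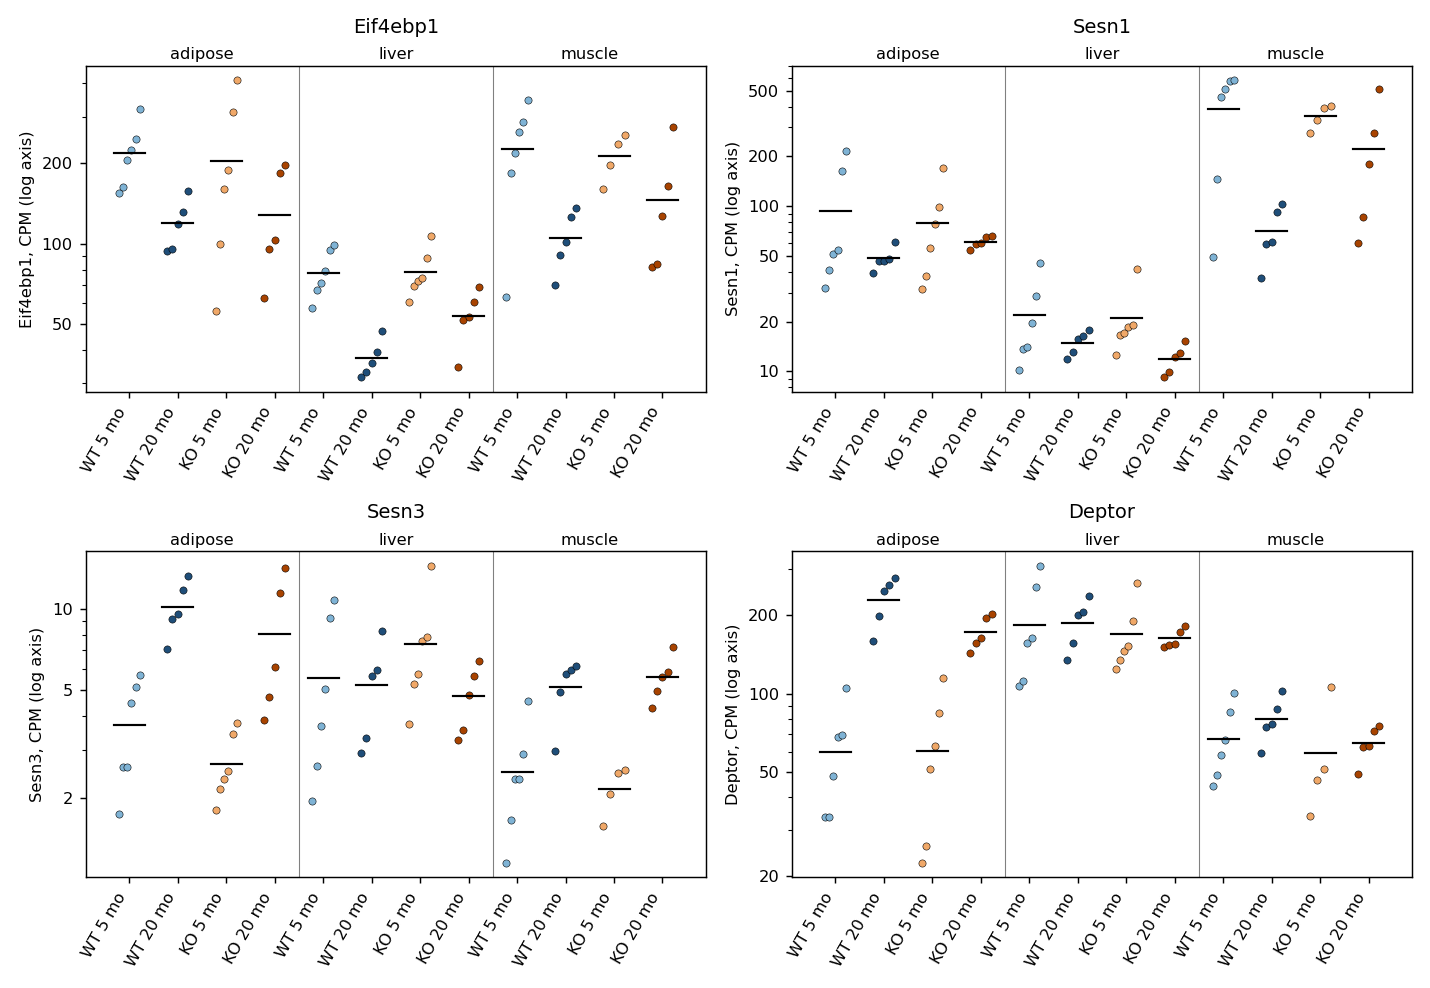
Levels of Eif4ebp1, Sesn1, Sesn3 and Deptor in every library, as CPM on log axes, by tissue, genotype and age; points are libraries and bars are group means. Deptor and Sesn3 in adipose tissue separate fully by age in both genotypes, while Sesn1 in young WT muscle splits into 4 libraries of 460 to 576 CPM and 2 of 49.2 and 146 CPM.

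Sesn1 fell in old WT muscle. Young libraries had 576, 574, 514, 460, 146 and 49.2 CPM and old ones 102, 92.7, 60.3, 59.0 and 36.8 CPM. The groups overlapped through the young library W5S5277 at 49.2 CPM, and W5S5299 at 146 CPM was also far from the other 4; the latter is the muscle library with epididymis markers. The change was -2.11 ± 0.58 (adjusted p = 0.0191), and it passed in 19 of 20 fits that dropped a library, the exception being W18S66 (-1.90, adjusted p = 0.0579). Without the Xist libraries, both high in Sesn1, it was -1.73 (adjusted p = 0.124).

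KO muscle did not show a called change. Its young libraries had 403, 390, 333 and 275 CPM and its old ones 509, 277, 181, 86.3 and 60.1 CPM, a change of -1.04 ± 0.65 (adjusted p = 0.313). The old KO library K18S62 was higher than every young KO library. The interaction of genotype and age for Sesn1 in muscle was not called (1.07 on the log2 scale, adjusted p = 0.999), so the 2 genotypes were not shown to differ. In adipose tissue the change was -0.56 ± 0.43 in WT and -0.14 ± 0.43 in KO mice (adjusted p of 0.382 and 0.852).

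Ddit4 (REDD1), a hormone- and stress-induced activator of the TSC brake on mTORC1, ran beside Sesn1 from library to library in muscle. In the young WT libraries listed above, in the same order, Ddit4 was at 880, 962, 519, 429, 76.8 and 29.3 CPM, and at 20 months it had 9.55 to 24.8 CPM, with no overlap. It fell by 3.90 ± 0.86 on the log2 scale (adjusted p = 0.00723), in a comparison where limma called 18.6% of all genes. The old KO library K18S62 was the highest of its group in both genes, with 529 CPM of Ddit4. Over all 64 libraries the 2 genes most like Sesn1 were Cebpd (r = 0.925) and Arid5a (r = 0.923), a correlation that also carries the tissue difference.

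In the same comparison, where 18.6% of all genes were called, FoxO target and clock genes gave these counts. Of 15 FoxO target genes, which include Sesn1 and Sesn3, 1 was called higher and 5 lower in old WT muscle, with a median of -0.80 against 0.03 over all genes; Foxo1 itself fell by 1.70 (adjusted p = 0.0409). Of 15 clock genes 3 were called higher, among them Bhlhe41 (1.26, adjusted p = 0.0455) and Nr1d2 (0.70, adjusted p = 0.0221), and 2 lower, Per1 (fell by 1.34, adjusted p = 0.00722) and Cry2 (fell by 1.03, adjusted p = 0.0233). In KO muscle 1 of 15 FoxO targets was called higher and 0 lower, and 0 of 15 clock genes were called. The part of these lists in the Sesn1 change was not tested.

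Eif4ebp1, a 4E-BP that the stress factor ATF4 induces, had a lower mean at 20 months in every tissue and genotype. In WT liver, where no test is given, it had 99.4, 94.6, 78.9, 71.2, 67.0 and 57.5 CPM at 5 months and 47.0, 39.2, 35.9, 33.2 and 31.6 CPM at 20 months, so the groups did not overlap (log2 -1.03 ± 0.17). KO liver had 60.7 to 107 CPM against 34.4 to 68.8 CPM, with 4 of 5 old libraries below every young one, and the change of -0.55 ± 0.17 was not called (adjusted p = 0.0815, and 0.0508 to 0.232 over 22 fits without 1 library).

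In WT muscle Eif4ebp1 had 63.3 to 347 CPM at 5 months and 69.9 to 136 CPM at 20 months (-0.98 ± 0.36, adjusted p = 0.0605). The young library at 63.3 CPM was W5S5277, also the lowest in Sesn1 and Ddit4, and without it the change was -1.31 (adjusted p = 0.00223); edgeR called it with all libraries (-1.15, adjusted p = 0.0305). In WT adipose tissue the change was -0.86 ± 0.39 (adjusted p = 0.143), and it was called without the epididymis libraries (-0.95, adjusted p = 0.0319). KO muscle and KO adipose tissue gave -0.67 ± 0.39 and -0.51 ± 0.39, neither called, but the latter was called without the epididymis libraries (-1.21, adjusted p = 0.0281). Without the Xist libraries limma called none of these falls and each was smaller. The change was then -0.85 in WT muscle (adjusted p = 0.214), -0.81 in WT adipose tissue (adjusted p = 0.244) and -0.20 in KO adipose tissue (adjusted p = 0.759).

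The remaining members gave few calls. Eif4ebp2 changed with age by 0.01 to 0.25 on the log2 scale over the 6 comparisons, none of the 5 tested ones called; its coefficient of variation within young WT liver was 11.5%, against 110% for Eif4ebp3. Eif4e changed by -0.21 to 0.24 and Mtor by -0.14 to 0.41, again with no call with all libraries. Without the epididymis libraries Mtor was called in WT adipose tissue (0.50, adjusted p = 0.0457), whereas without the Xist libraries its change was 0.25 (adjusted p = 0.309). Rptor was called in KO adipose tissue alone, from 26.3 ± 4.70 CPM to 37.0 ± 4.34 CPM (0.49 ± 0.16, adjusted p = 0.0451), but that call held in only 8 of 22 fits without 1 library, and edgeR did not make it (0.42, adjusted p = 0.0817).

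Counts for the other genes of the pathway are read against the share of all genes called with age, 10.8% in WT adipose tissue and 18.6% in WT muscle. In WT adipose tissue 2 of 11 genes of the mTOR complexes were called higher and none lower, Deptor and Rictor, the defining subunit of mTORC2 (0.62 ± 0.20, adjusted p = 0.0448). Of 29 genes of amino acid sensing 3 were called higher, a share near that of all genes, among them Castor2, an arginine sensor paralogue (1.60 ± 0.36, adjusted p = 0.00836). Irs1, the insulin receptor substrate, fell by 1.17 (adjusted p = 0.00613) as the only called gene of 13 in the insulin list. In WT muscle 4 of 29 amino acid sensing genes were called higher and 2 lower, again near the share of all genes, with Rragd, a Rag GTPase, at 0.83 ± 0.22 (adjusted p = 0.0144).

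Of 17 genes of the eIF4F and eIF4E families, 2 were called higher in old WT muscle, Eif4e2 (0.31) and Eif4g2 (0.29), and 1 lower, Eif4ebp3, a share near the 18.6% of all genes. In KO muscle, where 5.57% of all genes were called, Rictor (0.63, adjusted p = 0.0491) and Prkab2, an AMPK subunit (0.54, adjusted p = 0.0433), were called higher and 3 of 16 genes of the S6 kinase and other output list lower, Poldip3 (fell by 0.58) and Tfeb (fell by 0.48) among them. Prkab2 was also called in WT muscle (0.58, adjusted p = 0.0102), and so was Poldip3 (fell by 0.54, adjusted p = 0.0094). In KO liver 0 genes of any of the 11 lists were called.

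**Figure D5:**
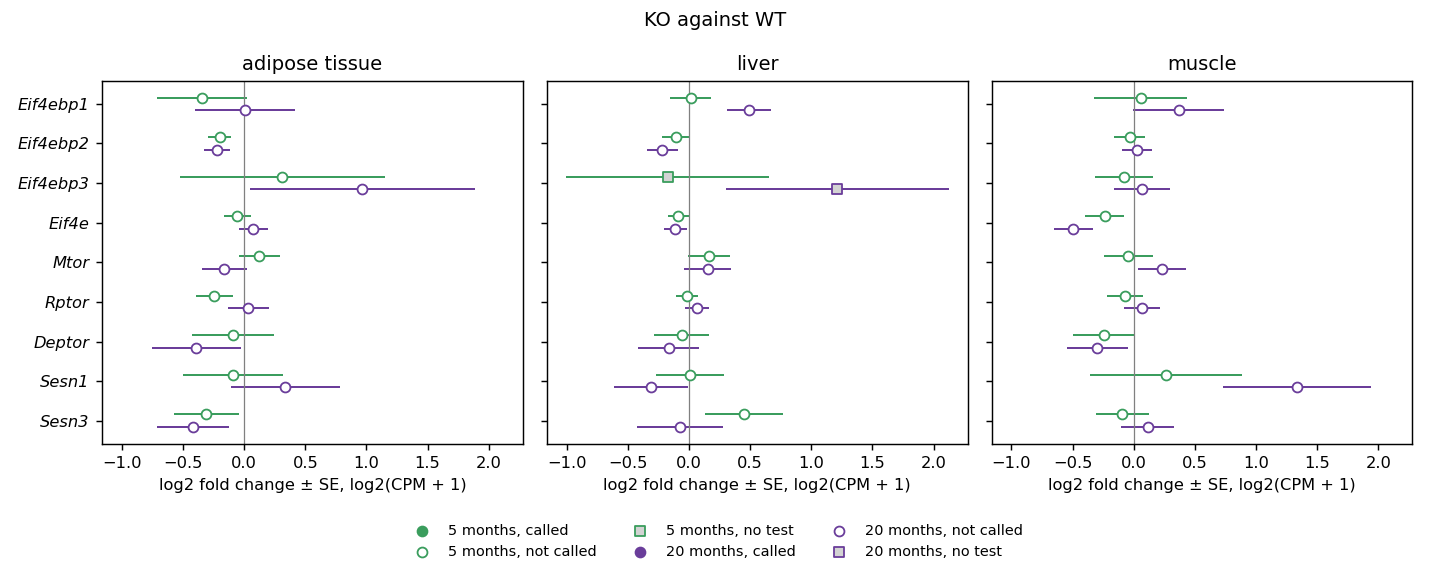
Log2 difference of KO against WT for the 9 genes at 5 months (green) and 20 months (purple), 1 panel per tissue, with bars of 1 SE from limma on log2(CPM + 1). No circle is filled, because no gene was called; grey squares (Eif4ebp3 in liver) carry no test, and the widest bars are those of Eif4ebp3 and Sesn1.

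KO and WT mice were compared last, the question that the study's design puts first. None of the genes tested was called in any of the 6 comparisons by limma or by edgeR. The background was as low: of all genes limma called 0.105% (adipose tissue), 0.0696% (liver) and 0% (muscle) at 5 months, and 0%, 0.0232% and 0.0302% at 20 months. At an unadjusted p under 0.05 limma found 1 member in adipose tissue (11.8% of all genes), 0 in liver (6.94%) and 0 in muscle (4.1%) at 5 months. At 20 months it found 1 (2.25% of all), 1 (5.8%) and 2 (13.8%). The interaction of genotype and age was called by limma for 0% of all genes in each tissue, and 0 members had an unadjusted p under 0.05, against 2.85%, 3.92% and 3.31% of all genes.

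Eif4e, for which a promoter window with E-boxes is shown above, had narrow intervals in adipose tissue and liver. At 5 months the KO against WT difference was -0.06 in adipose tissue (95% interval -0.28 to 0.17), -0.09 in liver (-0.27 to 0.09) and -0.24 in muscle (-0.57 to 0.10). At 20 months it was 0.07 (-0.17 to 0.32), -0.11 (-0.31 to 0.08) and -0.49 (-0.82 to -0.17). The muscle difference at 20 months had the smallest adjusted p of the members in these comparisons, 0.295.

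In that muscle comparison the KO libraries had 90.3, 88.1, 87.1, 70.4 and 60.9 CPM of Eif4e and the WT libraries 148, 112, 110, 98.3 and 92.7 CPM. The groups did not overlap, which 3% of all genes did, and the adjustment over 13237 genes left it uncalled. Eif4ebp2 in young adipose tissue was the other case of groups apart, at 112 to 126 CPM in KO and 128 to 159 CPM in WT libraries (log2 -0.20, adjusted p = 0.411, 0.301% of all genes apart).

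For the inhibitors the intervals were wide. The KO against WT difference of Deptor lay between -0.39 and -0.06 on the log2 scale in the 6 comparisons, with adjusted p from 0.586 to 1. Sesn1 in muscle at 20 months had the largest tested difference, 1.33 (interval 0.06 to 2.60, adjusted p = 0.347), with 3 of 5 KO libraries above every WT library. Eif4ebp3 in adipose tissue differed by 0.31 (-1.43 to 2.05) at 5 months and 0.97 (-0.94 to 2.87) at 20 months. In liver at 20 months, where no test is given, KO libraries averaged 31.2 ± 13.4 CPM of Eif4ebp3 and WT libraries 12.5 ± 4.25 CPM, and 4 of 5 KO libraries lay above every WT library.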

How the data were processed

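RNA of 64 mouse tissue libraries was sequenced after poly-T selection, per the labels' protocols, with a directional kit; how strand was used in counting, the aligner settings and the annotation are not given in the sources used here. The submitters' processing notes name build GRCm38.p6. The authors deposited 1 table of a read signal named CPM in its header, with CLC in the table's own name; the scaling factor of each library is not given in the sources used here. Column sums of this deposited signal ran from 529294 to 1640180, so they are not per a fixed total. Dividing by the value of 1 read gave whole numbers for 100% of values in every library, and 1 gene ID listed more than once was summed. Symbols came from RefSeq for 35336 of 36332 IDs.

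The filter kept genes over 1 CPM in a number of libraries equal to the smallest group or more (6 in the tissue comparison). Values were transformed to log2(CPM + 1) and fitted in limma 3.58.1 under R 4.3.3, all 4 groups of a tissue in 1 fit with an intensity trend, and called at an adjusted p under 0.05. Alternatives were edgeR 4.0.16 on the recovered reads, a pseudocount of 0.1, no filter, TMM factors, the 2 groups alone, and fits without single libraries, the Xist libraries or the epididymis libraries. The script was tested on simulated data. Intervals are 95% and two-sided. Correlations across code numbers used two-sided permutation tests, exact under 10 codes and with 100000 resamples otherwise.

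The members, gene lists and tests were chosen with earlier results of these data known. Named genes are the 9 members, Ankhd1, Ddit4 and Sesn2, and the closest genes by correlation. Per list, the 2 called genes with the largest change in each direction at a tissue mean of at least 5 CPM are also named. Values of Igfbp1, Lpin1, Dbp, Per1, Nr1d1, Clock, Arntl and Cry2 in liver were picked from the lists after being seen. Code numbers recur across tissues of young mice, so a fit with the code as a block was run for the tissue comparison; the consensus correlation of libraries with 1 code was 0.13.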

Additional observations from a re-analysis of the deposited data

Results flagged for a closer look

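Among 108 tests of a highest or lowest library (9 genes in 12 groups of 4 to 6 libraries), 1 stood out: Sesn1 in liver of KO mice at 5 months, where the library K5L4284 had 41.6 CPM and the next highest 19.2 CPM. Chance alone gives such a library in about 1 of 20 groups, so 1 among 108 tests is no more than chance gives. The same library also had the highest Ddit4 (83.3 CPM) and Eif4ebp3 (997 CPM) of its group.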

How the results depend on the processing

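Of the counts of called members, those that moved by over 1.5 times are these. In KO liver ageing edgeR called 1 against 0 in limma, and fits without 1 library gave 0 to 1. In KO muscle ageing fits without 1 library gave 0 to 1 against 1. In WT adipose ageing 4 were called without the epididymis libraries against 2. In WT muscle ageing none, 0 of 9, was called without the Xist libraries and 1 to 4 in fits without 1 library, against 3. Leaving out the Xist libraries also lowers the number of libraries, and the cause was not tested. With the mouse code as a replicate block the tissue counts stayed at 8, 6 and 6. No called value changed sign under any alternative run; values that passed no threshold were given no direction. Over all genes, leaving out the Xist libraries moved the called genes in WT muscle ageing from 2463 to 855, in WT adipose ageing from 1539 to 709, in WT liver ageing from 929 to 414, in KO muscle ageing from 737 to 261, in KO adipose ageing from 2033 to 3277, and in young adipose tissue KO against WT from 15 to 534. Fitting the 2 groups alone gave 840 in KO adipose, 179 in KO liver (against 386), 1778 in KO muscle, 2650 in WT adipose, 420 in WT liver and 1112 in WT muscle ageing. Without the epididymis libraries WT adipose ageing had 3497. With no filter KO liver had 245 and KO muscle 461. The split of higher and lower calls in KO adipose ageing was 1497 and 536 in limma, 997 and 1265 in edgeR and 1007 and 700 with TMM factors; in WT adipose ageing it was 1059 and 480 against 886 and 820 in edgeR; with TMM factors it moved from 217 and 169 to 260 and 121 in KO liver and from 366 and 563 to 449 and 446 in WT liver. Sesn3 (14 to 231 fewest reads per group) and Eif4ebp3 in muscle (42 to 72) are limited by depth.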

Other observations

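Sesn2, the sestrin that ATF4 induces, was described in no comparison above. In young WT mice it averaged 36.6 ± 17.4 CPM in adipose tissue, 14.6 ± 3.54 CPM in liver and 5.85 ± 0.877 CPM in muscle (SD, n = 6 each), with every adipose library above every liver library and every liver library above every muscle library. Differences between these tissues are common, with 68.9% to 73.1% of all genes called by limma. The order of Sesn2 is unlike that of Sesn1, whose mean was highest in muscle. Young KO liver had a Sesn2 mean of 23.9 ± 10.3 CPM (SD, n = 6), with 5 of 6 KO libraries above every WT library and a log2 difference of 0.60 ± 0.21, which was not called (limma, adjusted p = 0.503).

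For the other members the closest genes over all 64 libraries, again with the tissue difference inside the correlation, were Lrpprc for Eif4ebp2 (r = 0.969), Cdv3 and Uqcrc2 for Eif4e (0.937 each), Abcb4 for Rptor (0.930), Bcl7b for Eif4ebp1 (0.895), Gbf1 for Mtor (0.860), Nek6 for Deptor (0.843) and Washc4 for Sesn3 (0.806).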
